A study of Mus musculus with 6 samples.

Results

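The insulin-like growth factor (IGF) system is described here across infarcted mouse hearts in which fibroblasts could lose the transcription factor gene Runx1. Its 10 genes were chosen by name: the ligands Igf1 and Igf2, the receptors Igf1r and Igf2r, and the binding proteins Igfbp2, Igfbp3, Igfbp4, Igfbp5, Igfbp6 and Igfbp7. They are 10 of the 35498 genes with an entry in the files, and all 10 were among the 14237 genes that passed the filter on low counts. Poly-A RNA was sequenced from heart, taken from the ventricle below the ligature, of C57BL/6J mice aged 8 to 10 weeks. All had the left anterior descending (LAD) coronary artery ligated to cause a myocardial infarction, were collected 7 days later, and were fed tamoxifen from surgery to collection. The 3 CTL samples had the genotype Postn CreER+/-; Runx1 WT, and the 3 Runx1_FB_KO samples, called knockout below, had Postn CreER+/-; Runx1 fl. All 6 therefore carried CreER, a tamoxifen-activated recombinase driven by the promoter of Postn (periostin), a gene of activated fibroblasts. The labels do not give the zygosity of the Runx1 fl allele, and Runx1 in cells that do not express Postn was outside the reach of the recombinase. CTL replicate 1 and knockout replicates 2 and 3 were female, and the others were male. The labels do not say that each sample is a separate animal, so p-values measure the spread between these samples.

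IGF1 and IGF2 are secreted peptides that signal mainly through the IGF1 receptor, a tyrosine kinase closely related to the insulin receptor, with which it also forms hybrid receptors. The IGF2 receptor, which is also the cation-independent mannose 6-phosphate receptor, does not signal as a kinase. It carries IGF2 into the cell for degradation and delivers lysosomal enzymes to lysosomes. IGF-binding proteins hold the ligands outside the cell and are cut by proteases such as pregnancy-associated plasma protein A (Pappa), which frees the ligand. IGFBP7 is the exception, since it binds IGFs weakly. In injured heart, fibroblasts and macrophages are known sources of IGF1, while cardiomyocytes respond to it.

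Each library held 16598561 to 19987279 estimated reads. Levels across libraries are given as CPM, reads scaled to a library of fixed size with TMM factors, and levels between genes as TPM, which also divides by transcript length and sums to the same total in each library. Runx1, the targeted gene, stood at 96.4, 86.9 and 85.5 CPM in CTL replicates 1 to 3, and knockout replicates 1 to 3 had 17.5, 10.9 and 67.4 CPM, a log2 fold change of -1.48 (SE 0.63, adjusted p = 0.154, edgeR quasi-likelihood test). The library labelled knockout replicate 3 stood apart from knockout replicates 1 and 2: on the leading principal axis of the 500 genes that varied most (56.5% of their variance) it lay at -8.96, against 38.5 and 45.5 for the other knockout libraries and -30.0 to -22.2 for CTL. Results are therefore given with all 6 libraries and without it, where Runx1 fell by 2.61 on the log2 scale (SE 0.22, adjusted p = 0.000142, edgeR). Leaving it out was a choice made after seeing these data, and it takes out the knockout library nearest to CTL on this axis. P-values from the fit without it therefore describe the libraries kept and are not an independent test. Postn itself had 1540, 3522 and 2561 CPM in CTL, against 579, 322 and 2338 CPM in the knockouts (log2 fold change -1.23, SE 0.76, adjusted p = 0.274, edgeR). All 16 cardiomyocyte markers were detected and were higher in every knockout library than in every CTL library. Their summed level was 14324 to 18477 CPM in CTL and 102775, 127258 and 37173 CPM in knockout replicates 1 to 3. All 14 activated fibroblast markers were detected, and their sum was 41738 to 44044 CPM in CTL, against 10621, 9022 and 35973 CPM in the knockouts. Of these 14, 7 were lower in every knockout library than in every CTL library and 0 were higher. The 12 resting fibroblast markers summed to 2454 to 4332 CPM in CTL and 3259 to 3847 CPM in the knockouts, with 2 apart lower and 1 higher. The 13 macrophage markers, all detected, summed to 3428 to 5339 CPM in CTL and to 1474, 1410 and 3428 CPM in the knockouts, with 7 apart lower and 0 higher. The 10 endothelial markers summed to 1327 to 1465 CPM in CTL and 1437 to 1677 CPM in the knockouts, with 3 apart lower and 1 higher. The 9 mural markers summed to 1011 to 1193 CPM in CTL and 1216 to 1428 CPM in the knockouts, with 2 apart lower and 2 higher. Over all genes tested, 20.2% were apart higher and 18.8% lower. Mitochondrially encoded transcripts took 5.36% to 7.11% of reads in CTL and 24.5%, 19.6% and 10.4% in the knockouts. In bulk tissue, fewer cells of a type and less RNA per cell cannot be told apart, and the part of cell composition in the results below was not tested.

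With all 6 libraries, no IGF gene passed the test: edgeR called 0 of 10 at an adjusted p under 0.05, where it called 0.00% of all genes tested. At an unadjusted p under 0.05 it had 1 of 10 (Igfbp4, lower), beside 32.4% of all genes. DESeq2 called Igfbp4 alone, lower, where it called 19.6% of all genes (14.6% higher and 5.04% lower), and limma-voom called 0, with 2 members at an unadjusted p under 0.05 beside 33.5% of all genes. On the CPM scale, the groups were apart in all libraries in none of the 10 genes, whereas 39.0% of all genes had groups that did not overlap (20.2% higher and 18.8% lower). In TPM, 3 of 10 (Igf1r, Igfbp4 and Igfbp7) had every knockout library below every CTL library, as had 46.6% of all genes, and 53.8% were apart in either direction. Log2 fold changes were below 0 for 7 members and above 0 for Igf2r, Igfbp5 and Igfbp6, which were below 0 when scaled by library size alone. Their median was -0.54, and the median over all genes was -0.06. With scaling by library size alone the medians were -0.92 and -0.52.

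**Figure D1:**
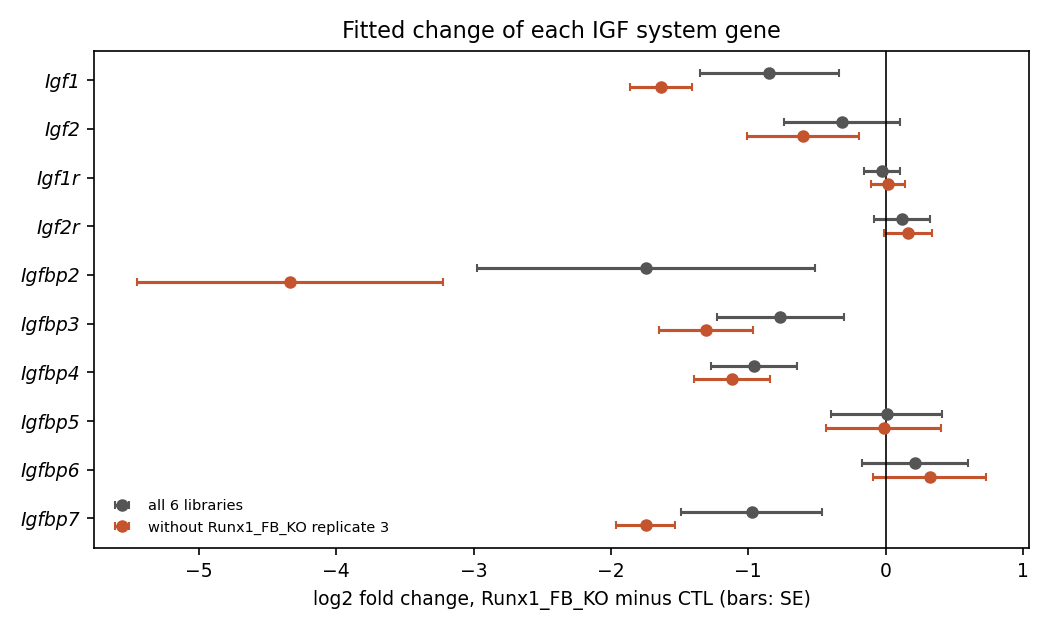
Log2 fold change (knockout against CTL, TMM scaling) of each IGF gene, with all 6 libraries and without knockout replicate 3; points are edgeR estimates and bars are 1 SE. The 5 genes lowest without that library are Igfbp2, Igfbp7, Igf1, Igfbp3 and Igfbp4, from -4.34 to -1.12.

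Without knockout replicate 3, 5 of 10 members were lower and none higher at an adjusted p under 0.05, in a fit that called 47.6% of all genes (25.1% higher and 22.5% lower). These 5 were Igf1, Igfbp2, Igfbp3, Igfbp4 and Igfbp7. From the same values, they were the members for which knockout replicates 1 and 2 both lay below every CTL library. That pattern was shown by 36.6% of all genes, while 32.6% lay above every CTL library and 69.2% did either. The median log2 fold change of the 10 was then -0.86, beside -0.05 over all genes. The receptors, Igf2, Igfbp5 and Igfbp6 did not pass in either fit.

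**Figure D2:**
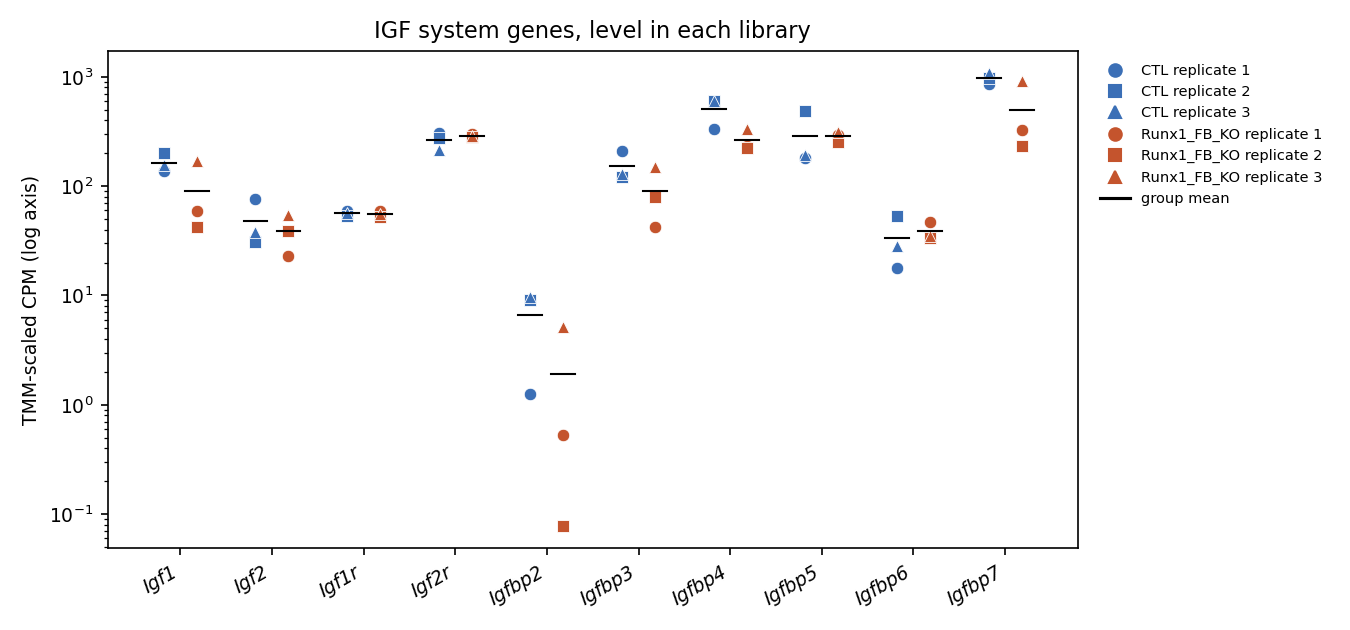
Level of each IGF gene in every library, in TMM-scaled CPM on a log axis, with CTL and knockout libraries side by side. The groups overlap in all 10 genes, and in Igf1 and Igfbp7 knockout replicate 3 lies inside the CTL range while replicates 1 and 2 lie far below it.

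Per length, the members covered a wide range of levels in the control infarct. Igfbp7 was the most abundant member in every library, at 1847, 2137 and 2341 TPM in CTL (mean 2108 ± 248 TPM, SD, n = 3). Igfbp4 was next in every library, with a CTL mean of 389 TPM, and its CTL range lay wholly below that of Igfbp7 and above that of Igfbp3 (mean 120 TPM). Then came Igfbp5 (78.7 TPM), Igfbp6 (69.8 TPM) and Igf1 (60.3 TPM), and each of these overlapped its neighbour in the order. Igf2r followed at 48.7 TPM, wholly below Igf1, and overlapped Igf2 at 33.7 TPM. Igfbp2 (11.8 TPM) and Igf1r (9.56 TPM) were the lowest and overlapped each other.

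The CTL libraries also differed among themselves for some members. The highest CTL library exceeded the lowest 7.75-fold for Igfbp2 and 1.13-fold for Igf1r. CTL replicate 1, the female control, was the highest of the 3 for Igf2, Igf1r, Igf2r and Igfbp3 and the lowest for Igf1, Igfbp2, Igfbp4, Igfbp5, Igfbp6 and Igfbp7. With 1 female CTL library, sex and the individual sample cannot be told apart.

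The ligand Igf1 (chr10:87858265-87937042, GRCm38, plus strand), the main growth hormone-dependent IGF, had 137, 201 and 155 CPM in CTL, against 59.7, 42.6 and 171 CPM in the knockouts. Knockout replicates 1 and 2 were below all CTL libraries, and replicate 3 lay inside the CTL range. With all libraries its log2 fold change was -0.85 (SE 0.51, adjusted p = 0.265, edgeR). Without replicate 3, Igf1 fell by 1.64 (SE 0.22, adjusted p = 0.00108, edgeR). Most Igf1 reads were assigned to Igf1-202 (ENSMUST00000095360.10), which held 2769, 4305 and 2963 reads in CTL and 881, 522 and 3048 in the knockouts. It made up 51.9%, 67.9% and 63.8% of Igf1 TPM in CTL and 74.9%, 79.4% and 53.4% in the knockouts. Salmon allocates reads between transcripts that share sequence, so these shares are estimates.

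Igf2 (chr7:142650766-142666816, minus strand), an imprinted gene best known as a fetal growth factor, had 76.0, 30.9 and 37.7 CPM in CTL, against 22.8, 38.9 and 54.1 CPM in the knockouts. The groups overlapped widely, and the log2 fold change was -0.32 (SE 0.42, adjusted p = 0.604, edgeR). It was -0.60 (adjusted p = 0.26) without replicate 3 and -0.65 (adjusted p = 0.106) with sex as a covariate. Igf2-201 carried most Igf2 reads. Igf2-205, another of its transcripts, took 2.76%, 5.80% and 6.69% of Igf2 TPM in CTL and 16.1%, 15.2% and 10.6% in the knockouts, without overlap. The share of Igf2-205 rested on 70 to 91 reads in CTL and 67 to 192 reads in the knockouts and was not tested. In TPM, Igf2-205 itself had 1.51, 1.18 and 1.75 in CTL and 0.836, 1.81 and 3.26 in the knockouts, which overlap. How often transcript shares separate over all genes was not counted. The share of Igf2-205 also depends on what Salmon allots to the other Igf2 transcripts. Igf2-208 took 43.0%, 30.4% and 40.0% in CTL and 0%, 33.8% and 37.8% in the knockouts. Igf2-202 took 17.5% in CTL replicate 2 and 0% in every other library.

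Neither receptor passed the test in either fit, and the groups overlapped in CPM for both. Igf1r (chr7:67952827-68233668, plus strand), the signalling receptor, had 59.5, 52.8 and 57.1 CPM in CTL, against 59.3, 51.8 and 55.5 CPM in the knockouts. Its log2 fold change was -0.02 (SE 0.13, adjusted p = 0.907, edgeR), and it was 0.02 without replicate 3. Igf2r (chr17:12682406-12769664, minus strand), the clearance receptor, had 308, 274 and 214 CPM in CTL, against 298, 279 and 288 CPM in the knockouts, a log2 fold change of 0.12 (SE 0.20, adjusted p = 0.691, edgeR). The 3 knockout libraries lay inside the CTL range for Igf2r. Scaling by library size alone gave -0.34 for Igf2r and -0.49 (SE 0.21) for Igf1r, beside -0.52 for the median gene, and RLE scaling gave 0.0085 for Igf1r.

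The binding proteins split into those that were lower without replicate 3 (Igfbp2, Igfbp3, Igfbp4 and Igfbp7) and those that were not (Igfbp5 and Igfbp6). RUNX proteins bind DNA at sites with the core TGTGGT, so the 250 bases upstream of the RefSeq start (GRCm38.p6) are printed for the 3 abundant members of the first set, 5′ to 3′ on the strand of the gene, with TGTGGT or its reverse complement ACCACA in capitals. Igfbp3 lies at chr11:7206086-7213923 (minus strand), Igfbp4 at chr11:99041244-99054392 (plus strand) and Igfbp7 at chr5:77349240-77408041 (minus strand).
Igfbp3, chr11:7213924-7214173, minus strand: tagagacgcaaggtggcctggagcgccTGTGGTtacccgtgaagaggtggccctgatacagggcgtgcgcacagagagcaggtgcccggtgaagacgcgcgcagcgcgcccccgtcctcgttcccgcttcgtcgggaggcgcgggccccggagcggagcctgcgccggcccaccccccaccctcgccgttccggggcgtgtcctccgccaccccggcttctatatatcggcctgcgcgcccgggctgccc
Igfbp4, chr11:99040994-99041243, plus strand: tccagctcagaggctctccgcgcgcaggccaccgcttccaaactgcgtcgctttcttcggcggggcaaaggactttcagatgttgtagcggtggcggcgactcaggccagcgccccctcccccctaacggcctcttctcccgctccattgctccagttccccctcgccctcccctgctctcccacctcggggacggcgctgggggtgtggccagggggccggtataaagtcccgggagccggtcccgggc
Igfbp7, chr5:77408046-77408295, minus strand: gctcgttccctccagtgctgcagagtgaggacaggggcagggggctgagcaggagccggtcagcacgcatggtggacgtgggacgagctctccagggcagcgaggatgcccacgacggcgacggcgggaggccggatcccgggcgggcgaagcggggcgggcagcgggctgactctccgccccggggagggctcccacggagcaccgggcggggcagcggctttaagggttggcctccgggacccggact
Their GC content was 73.2%, 69.2% and 74.0%. Igfbp3 alone held the core, with its first base at position -223 from the start, and it was the only match among 14 such windows of the 10 members. Of all 32851 RefSeq windows, 14% held a match on either strand. The variant TGCGGT, searched with ACCGCA for the other strand, which does not overlap that search, was found in 1 member window, of Igf2, and in 5.10% of all windows. A match describes the letters only, and a window without one says nothing about RUNX1 binding.

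Igfbp7, which is secreted and binds IGFs weakly, had 859, 980 and 1076 CPM in CTL, against 328, 234 and 919 CPM in the knockouts. Replicates 1 and 2 were far below the CTL libraries and replicate 3 was among them. The log2 fold change was -0.98 (SE 0.51, adjusted p = 0.218, edgeR), and without replicate 3 Igfbp7 fell by 1.75 (SE 0.21, adjusted p = 0.000635, edgeR).

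Igfbp4, which inhibits IGF action until PAPPA cuts it, had 330, 601 and 602 CPM in CTL, against 233, 225 and 331 CPM in the knockouts. The only overlap was CTL replicate 1 with knockout replicate 3, which were nearly equal. The log2 fold change of -0.96 (SE 0.31) had an adjusted p of 0.103 and an unadjusted p of 0.0177 with edgeR, while DESeq2 gave -0.92 with an adjusted p of 0.022. Without replicate 3, Igfbp4 fell by 1.12 (SE 0.28, adjusted p = 0.0139, edgeR). Among the 5 members that fell in that fit, the estimate for Igfbp4 moved least between the fits.

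Igfbp3, the main IGF carrier of the blood, had 211, 121 and 130 CPM in CTL, against 42.0, 79.1 and 151 CPM in the knockouts. Knockout replicate 3 lay between the CTL libraries. Igfbp3 had a log2 fold change of -0.77 (SE 0.46, adjusted p = 0.271, edgeR), and it was -1.31 (SE 0.34, adjusted p = 0.0168, edgeR) without replicate 3. With sex as a covariate and all 6 libraries it was -1.23 (SE 0.33, adjusted p = 0.101, edgeR).

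Igfbp2 (chr1:72824503-72852474, plus strand) rested on few reads: 28, 203 and 194 in CTL and 8, 1 and 101 in the knockouts. In CPM these were 1.25, 9.06 and 9.65 against 0.524, 0.0781 and 5.16. In CPM, CTL replicate 1 was closer to the low knockout libraries than to the other CTL libraries. On the log2 scale this did not hold for knockout replicate 2. Log2 deviations from the CTL mean were -1.87 in CTL replicate 1, -4.74 in knockout replicate 2, and 0.89 and 0.98 in CTL replicates 2 and 3. Igfbp2 had a log2 fold change of -1.75 (SE 1.23, adjusted p = 0.333, edgeR), and -4.34 (SE 1.11, adjusted p = 0.0157, edgeR) without replicate 3, where 1 of the 2 knockout libraries held 1 read.

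Igfbp5 (chr1:72857932-72874884, minus strand), which binds extracellular matrix and is the genomic neighbour of Igfbp2, had 179, 483 and 192 CPM in CTL, against 295, 251 and 313 CPM in the knockouts. All 3 knockout libraries lay inside the CTL range, and the log2 fold change was 0.01 (SE 0.40, adjusted p = 0.989, edgeR). Igfbp6 (chr15:102144362-102149511, plus strand), which prefers IGF2, had 17.8, 53.2 and 28.6 CPM in CTL, against 47.1, 33.4 and 35.1 CPM in the knockouts. Its knockout libraries also lay inside the CTL range, with a log2 fold change of 0.22 (SE 0.38, adjusted p = 0.706, edgeR). Both were highest in CTL replicate 2. Scaled by library size alone, Igfbp5 had -0.43 and Igfbp6 -0.25.

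The pool of binding protein transcripts was smaller in knockout replicates 1 and 2. Summed over the 6 binding proteins it was 2345, 2949 and 3039 TPM in CTL and 547, 447 and 2244 TPM in the knockouts. The ligands summed to 111, 86.9 and 83.9 TPM in CTL and to 14.7, 18.1 and 92.2 TPM in the knockouts. The ratio of the binding protein sum to the ligand sum was 21.1, 33.9 and 36.2 in CTL and 37.2, 24.8 and 24.3 in the knockouts, which overlap. With TMM scaling the same sums were 1599, 2247 and 2038 CPM for the binding proteins in CTL, against 945, 823 and 1754 CPM in the knockouts, a smaller distance in the same direction. The ligand sums were 213, 232 and 192 CPM in CTL, whereas knockout replicates 1 to 3 had 82.6, 81.5 and 225 CPM. TPM is a share of each library, and mitochondrial transcripts held 10.5% to 13.8% of it in CTL and 37.0%, 28.7% and 19.3% in the knockouts. Their part in these sums was not tested.

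**Figure D3:**
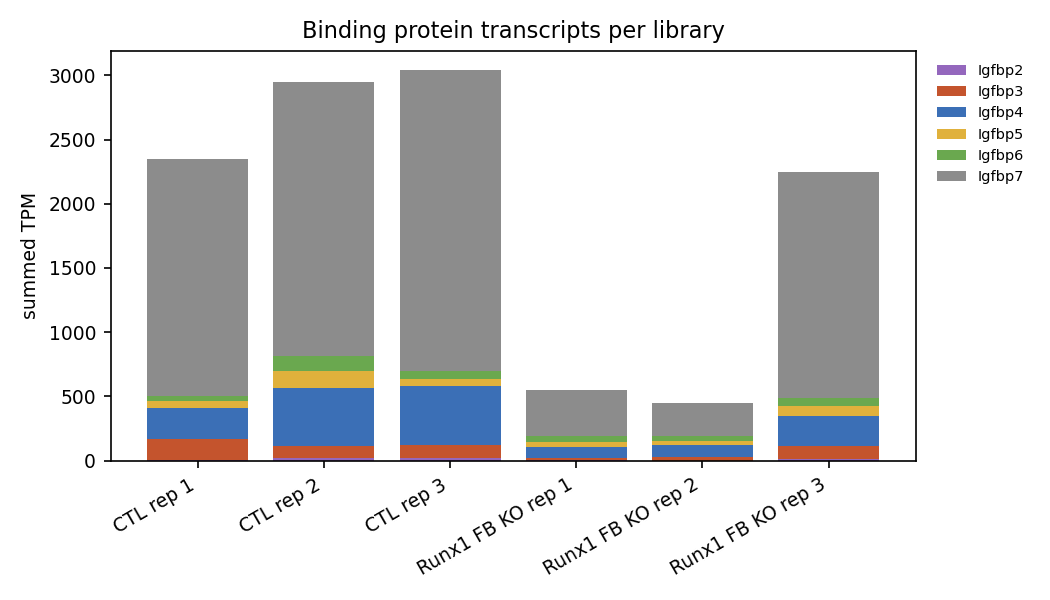
Summed TPM of the 6 binding protein genes in each library, split by gene, with bars starting at 0. Igfbp7 is the largest segment in all 6 libraries, and the bars of knockout replicates 1 and 2, at 547 and 447 TPM, are below every other bar.

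The make-up of this pool also differed between libraries. Igfbp7 made up 78.7%, 72.5% and 77.0% of the binding protein TPM in CTL and 64.5%, 58.1% and 78.2% in the knockouts. Igfbp6 made up 1.58%, 3.79% and 1.99% in CTL against 8.91%, 8.03% and 2.86%, and Igfbp5 made up 2.10%, 4.49% and 1.79% against 7.55%, 7.69% and 3.37%. In knockout replicates 1 and 2 both shares were above, and that of Igfbp7 below, every CTL library. These shares were not tested.

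Within-library ratios of TPM compare genes without the scaling between libraries. Of these, 4 were tested by exact two-sided permutation of the samples, which cannot give a p below 0.1 with 3 against 3. None passed. Igf1r to Insr, the IGF1 receptor against the insulin receptor, was 0.608, 0.433 and 0.670 in CTL and 0.174, 0.178 and 0.367 in the knockouts, the only ratio whose groups did not overlap. Its mean log2 ratio was -0.83 ± 0.33 in CTL and -2.15 ± 0.61 in the knockouts (SD, n = 3), a difference of -1.32 (exact p = 0.1, the smallest possible, and 0.4 adjusted over the 4 ratios). Insr is not a member, and its own log2 fold change with TMM scaling was 1.43, beside -0.02 for Igf1r. How often ratios of other gene pairs separate was not counted. Igf1 to Igf2 was 1.04, 3.26 and 2.20 in CTL and 1.82, 0.521 and 2.0 in the knockouts (exact p = 0.5, adjusted 0.667). Igf1r to Igf2r was 0.178, 0.18 and 0.241 against 0.171, 0.214 and 0.183 (exact p = 0.7, adjusted 0.7). Igfbp3 to Igfbp5, a pair of related binding proteins, was 3.31, 0.710 and 1.90 against 0.397, 0.898 and 1.37 (exact p = 0.3, adjusted 0.6).

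**Figure D4:**
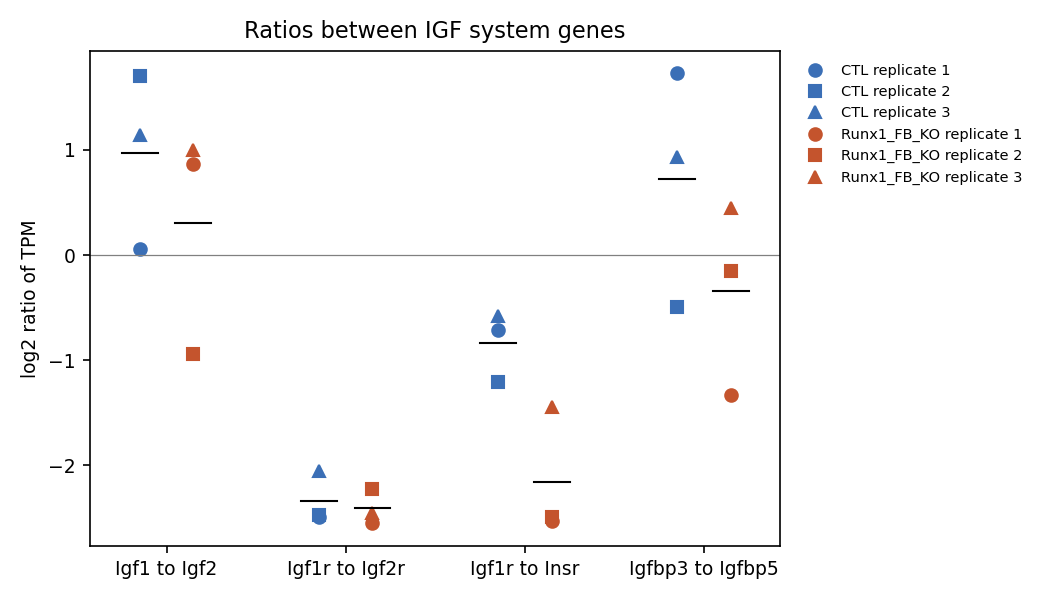
Within-library TPM ratios of 4 gene pairs on a log2 axis, 1 point per library, with group means. Only for Igf1r to Insr do all 3 knockout libraries (0.174 to 0.367) lie below all 3 CTL libraries (0.433 to 0.670).

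The pattern over the 6 libraries was compared between genes by the root mean square difference of centred log2 CPM, as a description of these libraries. Igf1 and Igfbp7 were the most alike pair of members, at 0.167 log2 units, followed by Igf1r with Igf2r at 0.176 and Igfbp5 with Igfbp6 at 0.246. Among protein-coding genes with a mean log2 CPM of at least 3, the nearest to Igfbp7 were Ccn1 (0.0727), a matricellular protein gene, and Map1b (0.0783). Those nearest to Igf1 were Lrig3 (0.0755) and Fam198b (0.0968), and those nearest to Igfbp4 were Olfml1 (0.0724) and Zfp503 (0.0982). Igfbp2 was nearest to Comp (0.422), a cartilage matrix protein gene, and Matn4 (0.507), at a larger distance. The genes compared share the same 6 libraries, with the position of knockout replicate 3.

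Genes that act around the IGFs were read from lists of related genes. Of 14 genes of IGF availability, 9 were tested, and edgeR called 0 of them with all libraries. At an unadjusted p under 0.05, 1 was higher, Igfals, and 0 were lower, beside 19.3% and 13.1% of all genes. DESeq2 called 1 higher and 0 lower, beside 14.6% and 5.04% of all genes. The median log2 fold change of the list was -0.15. Igfals, which encodes the acid-labile subunit that stabilises circulating IGF complexes, rested on 8, 16 and 15 reads in CTL and 53, 35 and 38 in the knockouts, and its log2 fold change was 2.15 (SE 0.48, adjusted p = 0.0682, edgeR). DESeq2 gave it an adjusted p of 0.000775, whereas an effective-length offset in edgeR gave 1.55 (SE 0.68, adjusted p = 0.175). In TPM its groups overlapped. Pappa had 32.8, 29.9 and 25.3 CPM in CTL, against 10.7, 7.65 and 36.0 CPM in the knockouts, a log2 fold change of -0.69 (SE 0.55, adjusted p = 0.388, edgeR). Adam12, a metalloprotease known to cut IGFBP3 and IGFBP5, had 123, 110 and 113 CPM in CTL, against 28.4, 27.4 and 116 CPM in the knockouts, a log2 fold change of -1.01 (adjusted p = 0.238, edgeR). In knockout replicate 3 Adam12 was inside and Pappa above the CTL range. Without that library Pappa fell by 1.63 (adjusted p = 0.000726), Adam12 fell by 2.0 (adjusted p = 7.6e-05) and Igfals was 2.39 higher (adjusted p = 0.00856), all by edgeR. Log2 fold changes of the others with all libraries were -0.87 for Pappa2 and -0.89 for Stc2, which encodes an inhibitor of PAPPA. They were -0.15 for Stc1, 0.13 for Htra1, 0.10 for Htra3 and -0.13 for Igf2bp2. Igfbp1, the binding protein made mostly by liver, had 0 reads in each library, where 3 reads would be 0.133 to 0.234 CPM. Igfbpl1, Igf2bp1 and Igf2bp3 had too few reads for a test, and H19 was not analysed here.

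Unlike the IGF receptors, the insulin receptor gene Insr was higher in every knockout library than in every CTL library, as were 20.2% of all genes. It had 73.9, 102 and 75.6 CPM in CTL, against 249, 297 and 131 CPM in the knockouts. Its log2 fold change was 1.43 (SE 0.33, adjusted p = 0.0682, edgeR), and DESeq2 gave an adjusted p of 0.000615. Irs1, the adaptor that couples the IGF1 and insulin receptors to PI3-kinase, had 12.1, 17.2 and 16.4 CPM in CTL, against 27.5, 37.8 and 28.1 CPM in the knockouts. Its log2 fold change was 1.03 (adjusted p = 0.0682, edgeR), and 0.54 (adjusted p = 0.129, edgeR) when scaled by library size alone. In TPM the Irs1 groups overlapped. Grb14, an inhibitory adaptor of the insulin receptor, had 1.43 (adjusted p = 0.0878), and Irs2 had -0.16 (adjusted p = 0.599). Of the 15 genes of the list, 11 were tested and edgeR called 0. At an unadjusted p under 0.05, 3 were higher and 2 lower, beside 19.3% and 13.1% of all genes. DESeq2 called 3 higher and 0 lower, beside 14.6% and 5.04% of all genes. The median log2 fold change of the list was -0.03.

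Of 8 growth hormone axis genes, 6 were tested and edgeR called 0. At an unadjusted p under 0.05, 3 were higher and 0 lower, beside 19.3% and 13.1% of all genes. DESeq2 called 3 higher and 0 lower, beside 14.6% and 5.04% of all genes. The median log2 fold change of the 6 was 0.43, and -0.09 when scaled by library size alone. Cish, a feedback inhibitor of STAT5 signalling, had 43.0, 28.3 and 29.3 CPM in CTL, against 101, 124 and 54.1 CPM in the knockouts, a log2 fold change of 1.47 (SE 0.33, adjusted p = 0.0682, edgeR). Stat5b had 0.70 (adjusted p = 0.101) and the growth hormone receptor Ghr had 0.77 (adjusted p = 0.122). Values for Jak2, Stat5a and Socs2 were -0.26, 0.16 and -0.03. Without replicate 3, Cish (1.79), Stat5b (0.95) and Ghr (1.03) were higher with TMM scaling, with edgeR adjusted p of 0.000503, 0.000938 and 0.00427. That fit called 25.1% of all genes higher. With all 6 libraries scaled by library size alone, Cish had 0.93, Stat5b 0.18 and Ghr 0.25. In TPM the groups overlapped for Stat5b and Ghr but not for Cish.

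Downstream, edgeR called 0 of 28 genes of the PI3-kinase, AKT and mTOR pathway and 0 of 18 FOXO factors and targets. At an unadjusted p under 0.05, 9 and 9 were higher and 4 and 0 were lower, beside 19.3% higher and 13.1% lower over all genes. DESeq2 called 6 higher and 2 lower in the first list and 7 higher and 0 lower in the second, beside 14.6% higher and 5.04% lower over all genes. Median log2 fold changes were 0.20 and 0.80, and -0.29 and 0.27 when scaled by library size alone. The smallest p-values belonged to Eif4e (1.29, adjusted p = 0.0709), Phlpp1 (0.97, adjusted p = 0.0786) and Deptor (-0.57, adjusted p = 0.0771) in the first list. In the second they belonged to Sod2 (2.39, adjusted p = 0.0682), Trim63 (1.91, adjusted p = 0.0682) and Pdk4 (2.58, adjusted p = 0.081), all by edgeR. Without knockout replicate 2, Pdk4 had 1.45 (adjusted p = 0.207, edgeR). Pdk4, which restrains pyruvate use in mitochondria, had 107, 160 and 83.7 CPM in CTL, against 409, 1467 and 226 CPM in the knockouts, and Trim63 encodes a muscle ubiquitin ligase. Sod2, Trim63 and Pdk4 are also expressed by cardiomyocytes, whose summed markers are given above, and the part of those cells in these values was not tested.

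**Figure D5:**
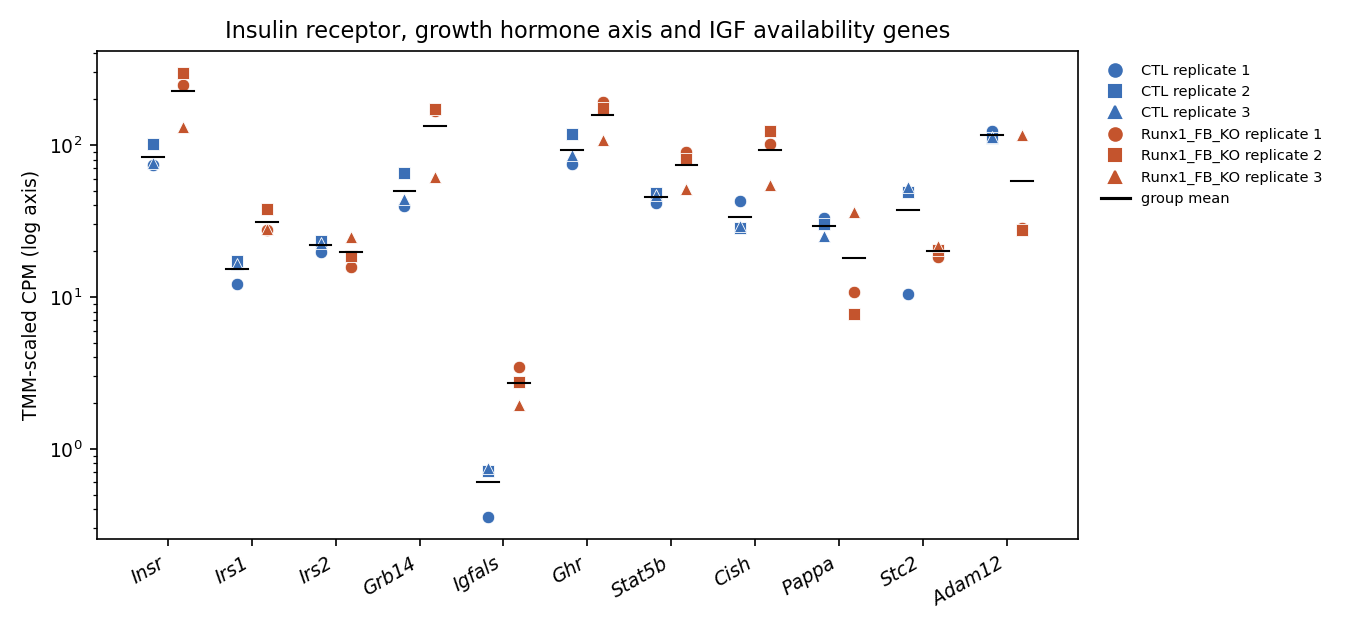
Level of Insr, Irs1, Irs2, Grb14, Igfals, Ghr, Stat5b, Cish, Pappa, Stc2 and Adam12 in every library, in TMM-scaled CPM on a log axis. CTL and knockout libraries are side by side, with group means as lines. No gene passes the adjusted threshold of 0.05 with all 6 libraries (edgeR).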

How the data were processed

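Messenger RNA was measured by poly-A RNA-seq in 3 CTL and 3 Runx1_FB_KO samples, grouped by the labels. For every sample the authors deposited a table of 116546 transcripts, each with its estimated count, TPM and effective length. The submitters' processing notes name Salmon 1.5.2, DESeq2 1.44.0 and the build GRCm38. Which annotation release was used is not given in the sources used here.

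Here, 115977 transcripts were matched to genes with GENCODE M21 (GRCm38), and 569 that did not match were left out. Deposited estimated counts were summed per gene and rounded to whole numbers. Deposited TPM values were summed per gene. Genes were kept by filterByExpr, scaled by TMM (factors 0.732 to 1.21) and tested by edgeR 4.0.16 quasi-likelihood with genotype as the only term, Benjamini-Hochberg adjustment over 14237 genes and a threshold of 0.05. The script was tested on simulated data. Each standard error is the size of the log2 fold change over the root of its F statistic. Totals of 16598561 to 19987279 reads set the counting precision. Alternatives were a sex covariate, a replicate block, other scalings and filters, an effective-length offset, leaving out mitochondrial and globin genes, DESeq2 1.42.0, limma-voom (limma 3.58.1) and leaving out each library. Promoter sequences came from RefSeq (GRCm38.p6).

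The members and lists were chosen with earlier results of these data known. Named were all members, Runx1, Postn, all tested genes of IGF availability and the growth hormone axis, Insr, Irs1, Irs2 and the 3 genes of smallest p in each other list. For likeness, the 2 nearest protein-coding genes of a mean log2 CPM of at least 3 were taken per member.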

Additional observations from a re-analysis of the deposited data

How the results depend on the processing

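With 3 libraries a group, the counts of calls differed with the tool, the filter and the libraries used. edgeR called 0 genes with all libraries, 889 with no filter and 0 to 6947 when a library was left out (6947 without knockout replicate 3), and DESeq2 called 2810. Members called numbered 1 by DESeq2 and 0 to 5 with a library left out. The other pathway lists held 71 genes tested with all 6 libraries. In those lists, the genes called numbered 6 with no filter, 22 by DESeq2 and 0 to 39 with a library left out. Over all genes, DESeq2 called 19.6%, and edgeR without knockout replicate 3 called 47.6%. Members with all knockout libraries below CTL numbered 0, and 5 without knockout replicate 3, a choice made after seeing the data. Of 160 member values under the alternatives, 138 kept their direction and side of the threshold. Same-numbered replicates did not pair: their deviations correlated at -0.0507, 0.113 and 0.0807. With a replicate block edgeR called 0 genes and 0 members, with 4399 genes at an unadjusted p under 0.05 against 4619 without it. Small log2 fold changes reversed. With library size alone they were -0.34 for Igf2r, -0.43 for Igfbp5, -0.25 for Igfbp6, -0.33 for Htra1, -0.40 for Htra3 and -0.36 for Stat5a. Igf1r was 0.0085 with RLE scaling, 0.066 with the effective-length offset and 0.00997 with DESeq2, and Stat5a was -0.056 with the offset. Leaving out a library gave -0.60 to 0.17 for Igf2, -0.0705 to 0.0262 for Igf1r, -0.0132 to 0.24 for Igf2r, -0.23 to 0.63 for Igfbp5, -0.0853 to 0.73 for Igfbp6, -0.54 to 0.15 for Stc1, -0.0675 to 0.27 for Htra3, -0.0876 to 0.024 for Socs2, -0.39 to 0.0284 for Igf2bp2, -0.017 to 0.39 for Stat5a and -0.16 to 0.074 for the log2 ratio of Igf1r to Igf2r. The cause of these reversals was not tested. Depth limits Igfbp2, Igfals and Pappa2, with 1 to 203, 8 to 53 and 2 to 35 reads a library.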
